A study of Mus musculus with 12 samples.

Results

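Livers of high-fat-diet mice injected with vehicle (HFD Vehicle, replicates 15, 23 and 55) were compared with livers of uninjected mice on regular chow (Chow, replicates 8, 17 and 19). These are 6 of the 12 samples of an RNA-sequencing series on diet and a drug in mouse liver. All mice were C57BL/6N. Their diet began at 6 weeks of age and was kept up for 15 weeks. The vehicle, 30% DMSO in corn oil, was given to the obese mice once a day for 4 days, by the intraperitoneal route the labels state for the compound it carried in another group. Chow mice had neither the fat diet nor the injections, so the effects of diet and of injection cannot be told apart in this contrast. Another group, high-fat diet without injection (HFD, replicates 4, 30 and 38), is set beside it where its counts help. The labels do not give the sex of the mice, the hour at which livers were taken, or whether the replicates are separate animals. The p-values therefore measure the spread between these samples, which may be technical.

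The members are the 790 genes for which the authors' deposited DESeq2 table of these 6 libraries gives values. Every one of them has a deposited adjusted p under 0.05, and they are 3.10% of an estimated 25520 genes tested. Among them 439 were higher in HFD Vehicle (1.72% of genes tested) and 351 were lower (1.38%). In what follows, rose and fell refer to these calls and say what HFD Vehicle did relative to Chow. Genes just inside the threshold in the authors' deposited table were Fzd5 and Ap2a2, each with an adjusted p of 0.04999, and Dock1 with 0.04994. Genes just outside it are not analysed here from that table.

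As background, hepatocytes store and burn fat, make new fat from sugar, oxidise drugs with cytochrome P450 enzymes and secrete most plasma proteins. When inflammatory interleukins reach the liver, hepatocytes raise a set of secreted proteins called acute phase proteins, among them serum amyloid A, orosomucoid and haptoglobin, through transcription factors that include STAT3 and the C/EBP family. The nuclear receptor PPAR alpha drives genes that burn fat, SREBP1c (the product of Srebf1) drives genes that make it, and PXR and CAR drive genes of drug metabolism. Prolonged high-fat feeding loads the mouse liver with lipid, and DMSO is a solvent used to carry poorly soluble drugs.

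Counts of a gene were put on a common scale with size factors (normalized counts), and a fold is the ratio of 2 group means. Values after ± are SDs with n = 3. The vehicle libraries held 22039805, 20059676 and 19773547 counts. Depth was less even in uninjected HFD, where replicates 4, 30 and 38 held 38161486, 24006180 and 7466378 counts. Chow totals were estimated as 22800000, 15500000 and 17900000, with an error of up to 18.9%, because only part of their genes has counts at hand. Counts in all 6 libraries were at hand for 2863 genes, the 790 listed here and 2073 that other tables of the series list. The hepatocyte marker list, 15 genes, had 0 members listed and 0 members at 0 in all 6 high-fat-diet libraries. For the 8 with Chow counts the summed level was 1031152 to 1702511 in HFD Vehicle, 1350195 to 1821605 in HFD and 1893601 to 2102559 in Chow. These 8 were listed in another comparison of the series with Chow, so the sum partly follows from that choice.

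The changes upward were larger than those downward. Among the 439 risers the median fold was 2.13, 245 were over 2-fold and 84 over 4-fold higher. Among the 351 fallers the median was 1.74-fold lower, with 106 over 2-fold and 25 over 4-fold lower. In 775 of the 790 genes the 3 HFD Vehicle libraries all lay on one side of the 3 Chow libraries, 427 risers and 348 fallers, and in 15 the groups overlapped. The choice of the listed genes on the same libraries nearly fixes this result. Of all 2863 genes with counts at hand, the 790 included, 57.0% did not overlap. Those genes too were selected by calls in some table of the series. The listed genes span a wide range of abundance, with a median mean of 495 normalized counts and a 10th to 90th percentile of 46.1 to 6563.

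**Figure D1:**
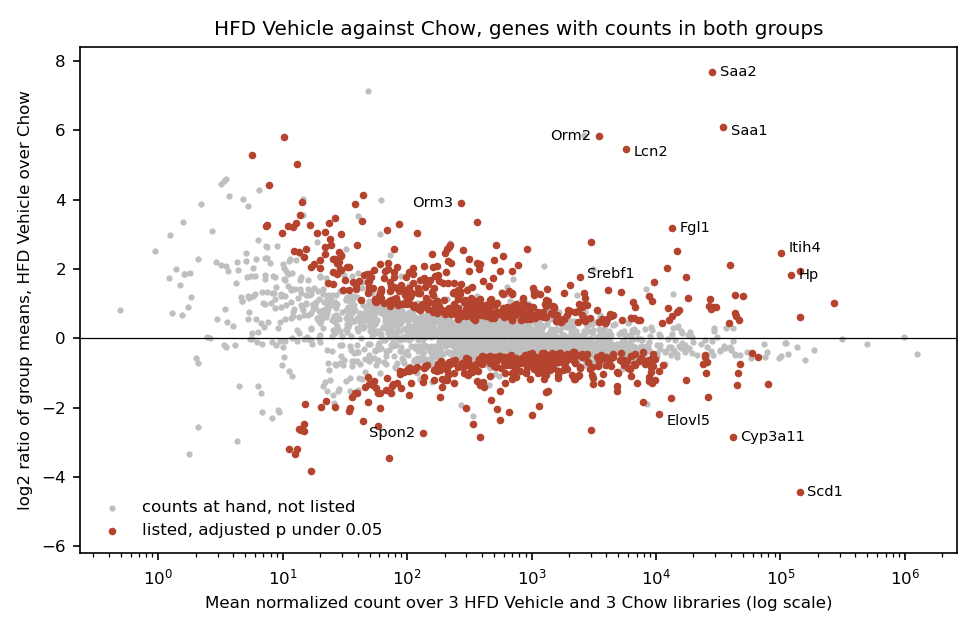
Each dot is 1 gene with counts in all 6 libraries, placed by its mean normalized count (x, log scale) and the log2 ratio of the HFD Vehicle mean to the Chow mean (y); red dots are the listed genes and grey dots the others with counts at hand. Saa2 and Saa1 stand highest among the labelled genes, with Orm2 and Lcn2 next, and Scd1 lies lowest; the grey dot beside Orm2 is Cyp2b9, which is not listed.

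The vehicle libraries were not alike. Replicate 55 was the farthest of the 3 from Chow in 249 of 439 risers and 206 of 351 fallers, and replicate 23 was the nearest in 236 and 161. Without replicate 55 a DESeq2 refit of the genes at hand called 506 genes, 457 of them among the listed 790. Without replicate 23 it called 635, of which 566 were listed, and without replicate 15 it called 561, of which 486 were listed. With all 6 libraries the refit called 732, of which 716 were listed. A more cautious test of the same counts was edgeR's quasi-likelihood test. It was run on the 2863 genes at hand, with Benjamini-Hochberg adjustment over 25520 genes. It passed 94, 57 higher and 37 lower. They are 0.368% of the 25520, most of which had no Chow counts at hand and were not tested by edgeR. Of the 94, 93 are listed genes. An unadjusted edgeR p under 0.05 was found for 1488 of the 2863 genes at hand, 789 of them listed, which the choice of the listed genes on the same libraries nearly fixes.

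The acute phase genes made up the group with the most members called. Of 39 expressed acute phase genes 21 rose, 0 fell and 18 were not listed, against 3.17% of 13775 expressed genes higher and 2.50% lower. Those shares, 5.67% in all, are the background for each list count below. Of the 21, 11 also passed edgeR. The DESeq2 refit had 21 risers with all libraries, 19 without vehicle replicate 55, 21 without replicate 23, and 20 risers with 1 faller without replicate 15.

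Saa2 and Saa1 encode serum amyloid A proteins, which ride on high-density lipoprotein during inflammation. Saa2 (ENSMUSG00000057465, chromosome 7, 46751790 to 46754313, GRCm38) had 69742, 6490 and 93746 normalized counts in HFD Vehicle replicates 15, 23 and 55, against 272, 157 and 393 in Chow replicates 8, 17 and 19. The groups did not overlap, and replicate 23 was far below the other vehicle libraries. Its mean was 56659 ± 45075 in HFD Vehicle and 274 ± 118 in Chow, a 207-fold difference (log2 ratio 7.69, SE 1.28). Saa1 (ENSMUSG00000074115, chromosome 7, 46740497 to 46742980) had 86189, 18561 and 100187 in HFD Vehicle against 1011, 669 and 1325 in Chow, 68.2-fold higher. In the uninjected HFD livers Saa1 had 4033, 7116 and 3800 and Saa2 had 1884, 3615 and 1862, between the other groups. Adjusted p-values for Saa2 were 0.0014 in the authors' deposited table and 0.0359 in edgeR. The deposited log2 change of Saa2, which is moderated, was only 1.46, far below the log2 ratio of 7.69. Saa3, an amyloid A made also by macrophages, rose 6.16-fold and was 3.63-fold higher without replicate 55. Saa4, the constitutive member of the family, rose 3.07-fold, with 13601, 13929 and 16489 in HFD Vehicle against 5355, 5452 and 3539 in Chow.

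The orosomucoids are plasma glycoproteins that bind basic drugs and damp inflammation. Orm2 (ENSMUSG00000061540, chromosome 4, 63362449 to 63365878) had 5816, 4850 and 9726 normalized counts in HFD Vehicle, against 123, 113 and 122 in Chow. It was high in all 3 vehicle libraries and nearly constant in Chow, with means of 6798 ± 2582 and 119 ± 5.6, a 57.1-fold difference (log2 ratio 5.84, SE 0.30). The adjusted p of Orm2 was 8.27e-113 in the authors' deposited table and 0.00127 in edgeR. HFD livers had 569, 544 and 558. Orm3 had 411, 363 and 752 in HFD Vehicle, 215, 296 and 355 in HFD and 33.7, 31.0 and 37.6 in Chow, 14.9-fold higher in HFD Vehicle than in Chow. Orm1, the most abundant of the 3 by count, rose 5.75-fold to 25063 ± 8659 in HFD Vehicle, against 4356 ± 914 in Chow, while HFD had 4825 to 5266.

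Lcn2 encodes lipocalin-2, an iron-handling protein that binds bacterial siderophores. Its counts were 8295, 3885 and 21285 in HFD Vehicle, 2396, 3096 and 2267 in HFD and 290, 139 and 327 in Chow. The 3 groups did not overlap, and replicate 55 was highest. The Lcn2 ratio of HFD Vehicle to Chow was 44.3, and 24.2 without replicate 55. Lcn2 had an adjusted p of 0.033 in edgeR.

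Because these genes moved together, the promoters of 5 of them are given from RefSeq (GRCm38.p6), 250 bases before to 50 after the RefSeq start, along the gene's strand. In Saa2 the RefSeq start differs from the gene start given above, so distances from that gene start differ too. They were picked after their values were seen. Capitals mark matches to TTGCNNAA, a short form of the C/EBP site, searched on both strands. Numbered from -1 at the base before the start, the match begins at -182 in Saa1, -183 in Saa2, -120 in Orm2, -121 in Orm3 and -216 in Lcn2.
Saa1, chr7:46742931-46743230, minus strand: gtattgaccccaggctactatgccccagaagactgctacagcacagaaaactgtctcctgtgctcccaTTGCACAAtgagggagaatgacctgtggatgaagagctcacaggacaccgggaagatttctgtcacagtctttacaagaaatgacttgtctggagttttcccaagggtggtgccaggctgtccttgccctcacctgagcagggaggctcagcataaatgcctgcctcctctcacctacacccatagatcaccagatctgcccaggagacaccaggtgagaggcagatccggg
Saa2, chr7:46751583-46751882, plus strand: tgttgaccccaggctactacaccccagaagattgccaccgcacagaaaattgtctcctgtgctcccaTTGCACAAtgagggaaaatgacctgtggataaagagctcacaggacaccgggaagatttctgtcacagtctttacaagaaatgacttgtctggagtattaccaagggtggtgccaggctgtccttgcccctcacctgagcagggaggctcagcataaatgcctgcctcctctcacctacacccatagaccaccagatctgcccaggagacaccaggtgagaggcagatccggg
Orm2, chr4:63362199-63362498, plus strand: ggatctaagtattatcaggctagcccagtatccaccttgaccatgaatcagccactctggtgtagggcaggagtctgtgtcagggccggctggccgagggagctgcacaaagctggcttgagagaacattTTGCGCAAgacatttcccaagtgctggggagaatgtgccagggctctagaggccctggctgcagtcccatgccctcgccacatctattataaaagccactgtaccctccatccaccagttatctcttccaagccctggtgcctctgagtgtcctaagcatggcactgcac
Orm3, chr4:63355908-63356207, plus strand: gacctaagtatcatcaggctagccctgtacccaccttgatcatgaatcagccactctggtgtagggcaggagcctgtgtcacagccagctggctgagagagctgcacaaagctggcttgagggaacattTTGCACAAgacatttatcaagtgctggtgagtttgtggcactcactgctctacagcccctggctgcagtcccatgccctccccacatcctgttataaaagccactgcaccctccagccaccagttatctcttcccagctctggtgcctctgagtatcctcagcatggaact
Lcn2, chr2:32387690-32387989, minus strand: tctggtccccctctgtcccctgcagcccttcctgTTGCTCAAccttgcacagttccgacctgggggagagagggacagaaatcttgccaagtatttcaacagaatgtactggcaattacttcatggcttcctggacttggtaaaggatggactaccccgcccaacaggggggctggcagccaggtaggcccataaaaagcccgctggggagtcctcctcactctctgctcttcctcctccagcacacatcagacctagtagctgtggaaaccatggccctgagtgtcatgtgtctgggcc
Saa1 and Saa2, which are neighbouring genes on opposite strands, share the match TTGCACAA and the bases around it. Orm2 reads TTGCGCAA and Orm3 TTGCACAA at nearly the same distance. Of the 17 acute phase risers with a promoter in this collection 10 held the motif, and 10.8% of all 32851 promoters of the same length did. The 10 include Saa1, Saa2, Saa3, Saa4, Orm2 and Orm3, related copies within the Saa and Orm families. Only the first promoter entry of each riser was searched. The share among acute phase genes that did not rise was not taken. A match is a description of the letters and not a measured binding site. Saa1 and Saa2, like the orosomucoids, are close copies of each other, so reads may be split wrongly between them, and the counts of single copies are less certain than their sum.

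Other acute phase genes rose by smaller folds from higher levels. Fgl1, a fibrinogen-like hepatokine, had 27206, 11986 and 33418 in HFD Vehicle against 2733, 3117 and 2148 in Chow, 9.08-fold higher. Itih4 and Itih3 are inter-alpha-trypsin inhibitor heavy chains, which bind hyaluronan. Itih4 had 160923, 115160 and 237069 in HFD Vehicle, 43722, 45770 and 33303 in HFD and 30702, 32978 and 30003 in Chow, 5.48-fold higher in HFD Vehicle than in Chow (adjusted p = 0.0338, edgeR). Itih3 rose 4.31-fold, and its HFD libraries (13258 to 16728) overlapped Chow (13342 to 15784).

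Haptoglobin and hemopexin clear free hemoglobin and heme from plasma. Hp had 191475, 121548 and 255352 in HFD Vehicle, 80872, 78863 and 86981 in HFD and 57388, 55303 and 46406 in Chow, 3.57-fold higher in HFD Vehicle than in Chow. Hpx had 189138, 185484 and 306453 in HFD Vehicle against 53477, 58634 and 64797 in Chow, 3.85-fold higher. For both genes the 3 vehicle libraries lay above all others. Hpx passed edgeR (adjusted p = 0.0449) and Hp did not (adjusted p = 0.0694).

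Apcs (serum amyloid P) rose 6.81-fold, 4.40-fold without replicate 55. The secreted glycoprotein Lrg1 rose 4.09-fold, 2.56-fold without that library. The protease inhibitor Serpina3n rose 3.39-fold and its relative Serpina3m 1.44-fold. Il1rn, the natural antagonist of the interleukin-1 receptor, rose 2.86-fold, with 110 ± 26.3 in HFD Vehicle and 38.5 ± 6.9 in Chow. The metal-binding metallothioneins Mt1 and Mt2 rose 2.34-fold and 2.54-fold. Mt1 had 15273, 8783 and 12845 in HFD Vehicle against 6604, 3148 and 6046 in Chow, and HFD livers, at 3268 to 7568, overlapped Chow.

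**Figure D2:**
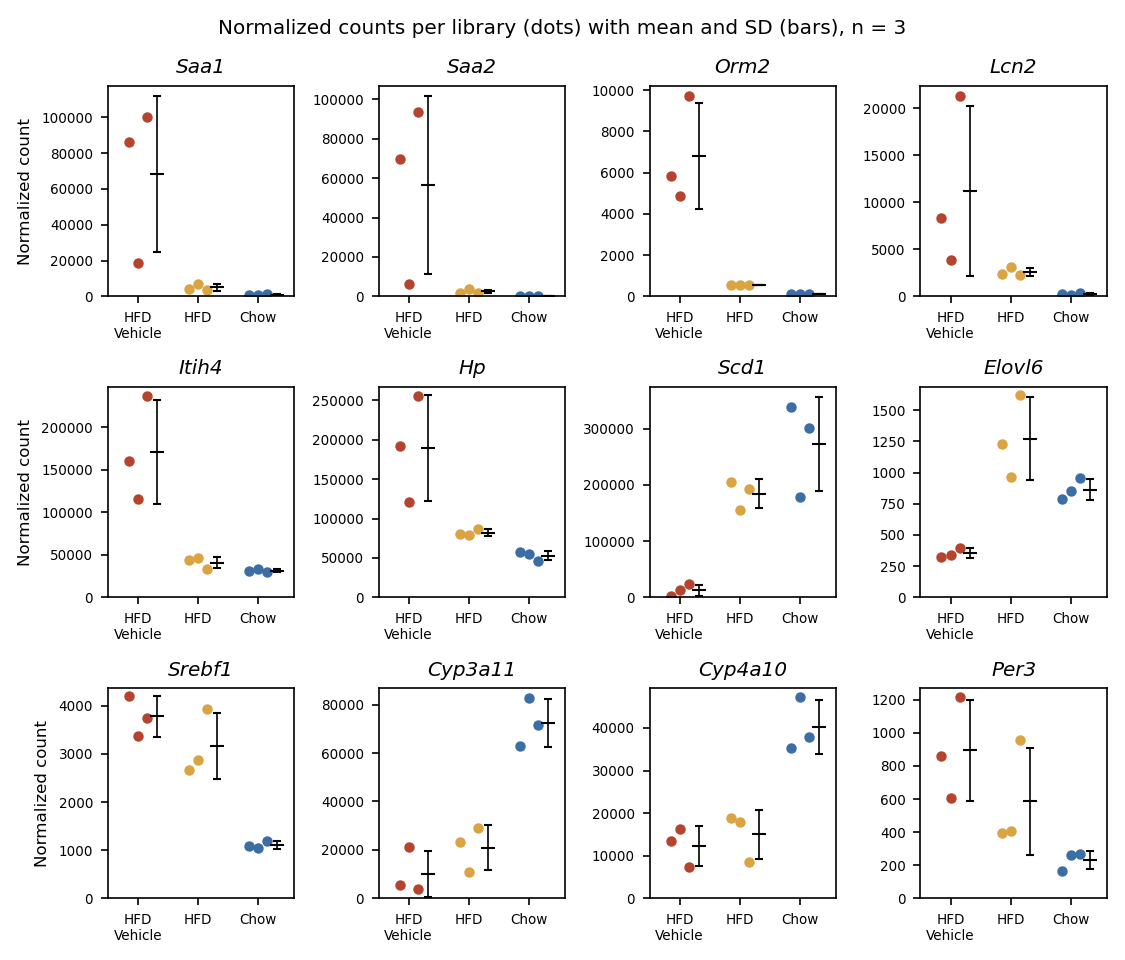
Normalized counts (y, linear) of 12 genes in each HFD Vehicle, HFD and Chow library, with the group mean and SD as bars. The acute phase genes in the first 6 panels are highest in HFD Vehicle, Scd1 and Elovl6 are low in HFD Vehicle alone, and Srebf1, Cyp3a11 and Cyp4a10 in HFD stand nearer to HFD Vehicle than to Chow.

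Complement and coagulation genes, which the liver also secretes, rose in part. Of 42 expressed members 13 rose and 0 fell (3.17% and 2.50% of expressed genes), and 0 of the 13 passed edgeR. In the DESeq2 refit 13 rose with all libraries, 9 without vehicle replicate 55, 11 without replicate 23 and 8 without replicate 15. The list shares C3 with the acute phase list. C3, the central complement component, had 367157, 294446 and 430253 in HFD Vehicle, 137269, 140433 and 85370 in HFD and 177793, 191580 and 169256 in Chow. It was 2.03-fold higher in HFD Vehicle than in Chow, and its HFD libraries lay below Chow.

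C4b, of the classical pathway, rose 2.40-fold to 60582 ± 11411 in HFD Vehicle, against 25254 ± 1681 in Chow. Cfb, which drives the alternative pathway, rose 1.77-fold. Hc (complement C5) had 36451, 33302 and 36184 in HFD Vehicle against 18798, 19890 and 20450 in Chow, a 1.79-fold rise with little spread. The C1 inhibitor gene Serping1 rose 1.57-fold. Cpb2, which slows fibrin breakdown, rose 2.05-fold, plasminogen (Plg) 1.35-fold and protein S (Pros1) 1.41-fold.

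Cytokine and chemokine genes had 0 of 18 expressed members listed. Chow counts were at hand for 6 members, and the Chow levels of the others are not analysed here. Of 33 expressed interferon response genes 3 rose and 0 fell. Ifi27l2b, an interferon-inducible gene of the Ifi27 family, had 160, 249 and 233 in HFD Vehicle, 406, 298 and 547 in HFD and 39.6, 18.6 and 20.4 in Chow. It was 8.18-fold higher in HFD Vehicle than in Chow, and highest in the uninjected HFD. The immunoproteasome subunits Psmb8 and Psmb9 rose 1.77-fold and 1.88-fold. The refit had 3 interferon response risers with all libraries and 1 without replicate 55 and 2 without replicate 23 or 15.

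Stress-response genes that rose were Gadd45a, Gadd45b, Gadd45g and Myc, 4 of 14 expressed heat shock and immediate early genes, with 0 fallers, against 3.17% higher and 2.50% lower of all expressed genes. In the DESeq2 refit 3 rose with all libraries and 2 without vehicle replicate 15. Gadd45b, a growth arrest gene induced by inflammatory signals, had 507, 445 and 557 in HFD Vehicle, 221, 216 and 115 in HFD and 109, 191 and 92.5 in Chow. It rose 3.85-fold over Chow and passed edgeR (adjusted p = 0.0359). Gadd45a rose 4.17-fold, 2.76-fold without replicate 55. Gdf15, a stress hormone that reduces appetite, rose 4.38-fold, with 716, 600 and 571 in HFD Vehicle against 175, 81.7 and 174 in Chow (adjusted p = 0.0338, edgeR).

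Genes of fatty acid and triglyceride synthesis were divided. Of 23 expressed members 2 rose, 7 fell and 14 were not listed, against 3.17% higher and 2.50% lower of all expressed genes, and 4 of the 9 passed edgeR. The fallers Elovl5, Elovl6, Fads1, Fads2 and Scd1 lengthen or desaturate fatty acids, and Me1 and Acacb fell too. The risers, Srebf1 and Mlxipl, encode the transcription factors SREBP1 and ChREBP that are known to drive enzymes of fat synthesis. The refit gave 2 risers and 6 fallers with all libraries, 3 and 7 without replicate 55, 2 and 6 without replicate 23, and 1 and 6 without replicate 15.

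Scd1 encodes the desaturase that makes oleate from stearate. Scd1 (ENSMUSG00000037071, chromosome 19, 44394451 to 44407709, GRCm38) had 2770, 12333 and 22993 normalized counts in HFD Vehicle, 204505, 155405 and 193556 in HFD and 338099, 178287 and 302151 in Chow. All 3 vehicle libraries lay far below the 6 others, and HFD overlapped Chow. The mean was 12699 ± 10116 in HFD Vehicle and 272846 ± 83840 in Chow, 21.5-fold lower (log2 ratio -4.43, SE 0.95), and 36.1-fold lower without replicate 55. The adjusted p of Scd1 was 5.03e-06 in the authors' deposited table and 0.0623 in edgeR. Its deposited log2 change, which is moderated, was -2.0, against the log2 ratio of -4.43. Its relative Scd3 held 0 raw counts in the 3 vehicle libraries and 51 in the 3 Chow libraries, at least 18.2-fold lower with a floor of 3 counts over the group.

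The elongases that extend long-chain fatty acids fell as well. Elovl5, which lengthens polyunsaturated chains, had 2917, 4855 and 3659 in HFD Vehicle, 16409, 12059 and 18287 in HFD and 18997, 15404 and 17740 in Chow, 4.56-fold lower in HFD Vehicle than in Chow. Elovl6, which takes palmitate to stearate, had 324, 337 and 398 in HFD Vehicle, 1231, 965 and 1620 in HFD and 784, 853 and 953 in Chow. It was 2.45-fold lower in HFD Vehicle than in Chow, while each HFD library was above every Chow library. Both passed edgeR (adjusted p = 0.0201 each).

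The front-end desaturases Fads1 and Fads2 fell 1.57-fold and 1.80-fold. Malic enzyme (Me1), which supplies NADPH for fat synthesis, fell 2.27-fold (adjusted p = 0.0463, edgeR). Acacb, the acetyl-CoA carboxylase that restrains fat burning, fell 1.95-fold. Elovl2 (2.42-fold) and the glycerol phosphate dehydrogenase Gpd1 (2.17-fold) fell too and were picked after their values were seen. Fasn, the fatty acid synthase, is not among the listed genes: it had 4384, 3324 and 4339 in HFD Vehicle, 8693, 6023 and 12218 in HFD and 3727, 4129 and 4262 in Chow. Acly, which makes cytosolic acetyl-CoA, is likewise not listed, at 2470 ± 259 in HFD Vehicle and 2125 ± 86.1 in Chow.

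Srebf1 (ENSMUSG00000020538, chromosome 11, 60199089 to 60222581) had 4212, 3376 and 3750 in HFD Vehicle, 2656, 2879 and 3936 in HFD and 1096, 1042 and 1192 in Chow. Both high-fat-diet groups lay above Chow and overlapped each other. Srebf1 rose 3.41-fold over Chow (log2 ratio 1.77, SE 0.11; adjusted p = 0.0091, edgeR). Mlxipl rose 2-fold, with 1634, 1008 and 2452 in HFD Vehicle against 962, 758 and 827 in Chow.

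Lipid droplet and fat uptake genes had 1 riser and 2 fallers of 22 expressed, against 3.17% and 2.50% of all expressed genes. The DESeq2 refit had 1 riser and 2 fallers with all libraries, 2 and 2 without vehicle replicate 55, 1 and 1 without replicate 23, and 3 and 1 without replicate 15. Plin4, a droplet coat protein, rose 2.17-fold to 1780 ± 278 in HFD Vehicle, against 819 ± 207 in Chow. Plin2, the main droplet coat of hepatocytes, fell 1.73-fold, with 5173, 6093 and 9657 in HFD Vehicle, 12310, 11568 and 15308 in HFD and 12448, 12489 and 11246 in Chow. Fabp1, the liver fatty acid binding protein, fell 1.99-fold, with 32226, 35646 and 24461 in HFD Vehicle against 68172, 63770 and 52040 in Chow. Cidec and Cidea, which enlarge droplets, are not listed. Cidec had 128, 485 and 418 in HFD Vehicle, 2218, 1172 and 3251 in HFD and 476, 301 and 138 in Chow, so HFD Vehicle and Chow overlapped while HFD lay above both. Cd36, a fatty acid transporter, is not listed either, with 3984 ± 1964 in HFD Vehicle and 2841 ± 1445 in Chow.

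Cholesterol synthesis and SREBP2 target genes had 2 risers (Dhcr7 2.12-fold, Mvk 2.44-fold) and 1 faller (Tm7sf2, a sterol reductase, 1.85-fold lower) of 25 expressed. Their sum over the 24 genes with Chow counts ran from 36582 to 73898 in HFD Vehicle, 38885 to 54159 in HFD and 37296 to 44232 in Chow. The 24 are those listed in some comparison of the series with Chow, so the sum partly follows from that choice. The number of risers depended on the library: the DESeq2 refit had 0 with all libraries, 8 without vehicle replicate 23, and 0 without replicate 55 or 15. Sqle, the squalene epoxidase, is not listed, at 590, 354 and 2294 in HFD Vehicle against 247, 769 and 544 in Chow. Its ratio was 2.07, and 0.907 without replicate 55.

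Fat-burning genes under PPAR alpha fell. Of 32 expressed members 0 rose, 10 fell and 22 were not listed, against 2.50% of expressed genes lower, and 1 of the 10 passed edgeR. The DESeq2 refit had 10 fallers with all libraries, 6 without vehicle replicate 55, 8 without replicate 23 and 5 without replicate 15. Cyp4a10 and Cyp4a14 encode hydroxylases that start omega oxidation and are classic PPAR alpha targets in mouse liver. Cyp4a10 had 13370, 16392 and 7262 in HFD Vehicle, 18780, 17842 and 8441 in HFD and 35340, 47376 and 37912 in Chow. Both high-fat-diet groups lay below Chow and overlapped each other, and Cyp4a10 was 3.26-fold lower in HFD Vehicle than in Chow. Cyp4a14 fell 2.53-fold.

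Ehhadh, an enzyme of peroxisomal beta oxidation, fell 3.28-fold and the peroxisomal thiolase Acaa1b 1.99-fold. Acot1, a thioesterase that frees fatty acids from coenzyme A, had 564, 584 and 277 in HFD Vehicle against 1878, 2222 and 1395 in Chow, 3.86-fold lower (adjusted p = 0.0463, edgeR). The mitochondrial trifunctional subunits Hadha and Hadhb fell 1.37-fold and 1.57-fold, and the carnitine carrier Slc25a20 fell 1.39-fold.

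**Figure D3:**
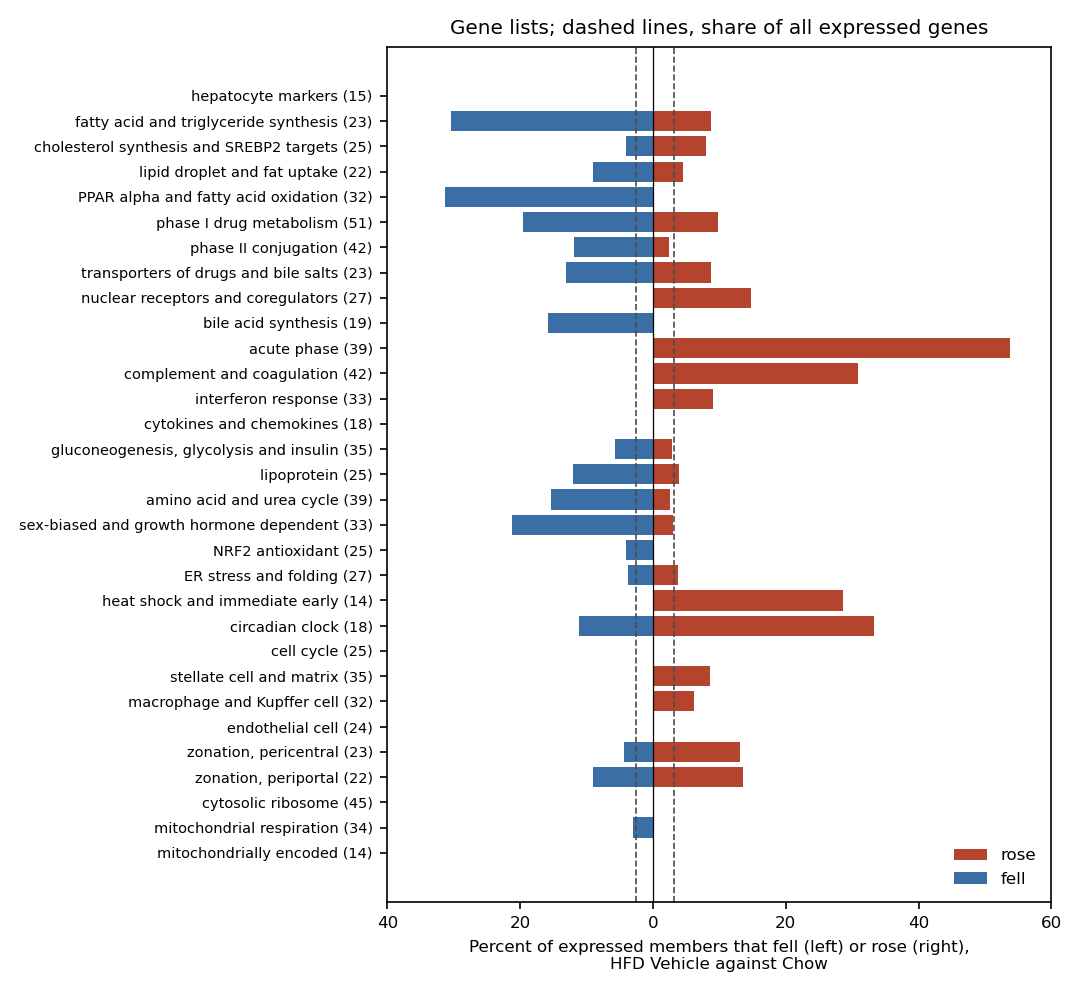
Percent of the expressed members of each gene list drawn (number in brackets) that rose (right, red) or fell (left, blue) in HFD Vehicle against Chow. Dashed lines mark the shares of all expressed genes, 3.17% higher and 2.50% lower. Lists with few expressed members are not drawn: cholangiocyte, lymphocyte and granulocyte, and blood, adipose, muscle and pancreas. Acute phase, circadian clock, and complement and coagulation genes reach farthest to the right, and PPAR alpha and fatty acid synthesis genes farthest to the left.

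Enzymes of drug metabolism changed in both directions. Of 51 expressed phase I genes, which oxidise or hydrolyse drugs, 5 rose and 10 fell, 29.4% listed against 5.67% of all expressed genes. Of 42 phase II conjugation genes 1 rose and 5 fell, 14.3% listed, where 3.17% of all expressed genes were higher and 2.50% lower. For phase II the refit had 4 fallers with all libraries and 8 without vehicle replicate 23. Cyp3a11, the main drug-oxidising P450 of its family in mouse liver, had 5625, 21086 and 3720 in HFD Vehicle, 23096, 10861 and 28873 in HFD and 63068, 82773 and 71585 in Chow. All 6 high-fat-diet libraries lay below Chow, and within HFD Vehicle replicate 23 was several times the others. The mean was 7.14-fold lower in HFD Vehicle than in Chow, and 15.5-fold lower without replicate 23. The adjusted p of Cyp3a11 was 0.027 in the authors' deposited table and 0.119 in edgeR.

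Other P450 genes fell too. Cyp3a44 fell 5.75-fold, 9.96-fold without replicate 23. Cyp2c55, an arachidonate-oxidising P450, fell 5.21-fold to 14.4 ± 5.2 in HFD Vehicle, against 74.8 ± 10.3 in Chow (adjusted p = 0.0359, edgeR). Cyp2f2, a periportal and naphthalene-oxidising P450, fell 2.31-fold, and Cyp2c67 fell 2.20-fold. The carboxylesterase Ces1e fell 2.45-fold (adjusted p = 0.0449, edgeR). Its relative Ces2a fell 1.95-fold, with 4642, 3065 and 2175 in HFD Vehicle, 1924, 2333 and 1259 in HFD and 5211, 6960 and 7108 in Chow.

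The 5 phase I risers include the electron and heme supply of P450 enzymes. Por, the reductase that passes electrons to P450s, had 22054, 17113 and 16226 in HFD Vehicle, 11216, 12234 and 8065 in HFD and 11452, 11529 and 9425 in Chow, 1.71-fold higher in HFD Vehicle than in Chow. Alas1, the first enzyme of heme synthesis, rose 1.88-fold, with 36129, 39846 and 35677 in HFD Vehicle against 17666, 21718 and 19863 in Chow. Cyp2a5 rose 2.10-fold, Cyp2a4 3.07-fold and Cyp3a13 1.86-fold. Reads of the close copies Cyp2a4 and Cyp2a5, or within the Cyp3a and Cyp4a families, can be assigned to the wrong copy.

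Of the conjugation enzymes, Ugt2b1 fell 3.53-fold, with 4395, 4195 and 1786 in HFD Vehicle against 9652, 13747 and 13265 in Chow. Ugt1a9 fell 4.03-fold, 6.65-fold without replicate 23, and Ugt1a5 fell 2.66-fold (adjusted p = 0.0449, edgeR). Ugt1a6a rose 2.30-fold, to 146 ± 29.9 in HFD Vehicle against 63.8 ± 10.9 in Chow. The Ugt1a genes share all exons but the first, so their counts rest on the first exons and are less certain. Gstm6, a glutathione transferase, fell 1.99-fold.

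Among 27 expressed nuclear receptors and coregulators 4 rose and 0 fell, against 3.17% and 2.50% of all expressed genes. Nr1i2 (PXR) rose 1.46-fold, with 2420, 2066 and 1988 in HFD Vehicle against 1678, 1364 and 1397 in Chow. Nr1i3 (CAR) rose 1.55-fold, with 6126, 4554 and 5079 in HFD Vehicle against 3124, 3751 and 3274 in Chow. The estrogen receptor Esr1 rose 1.63-fold, with 829, 718 and 833 in HFD Vehicle against 494, 452 and 515 in Chow. The refit had 4 receptor risers with all libraries, 2 without replicate 55, 3 without replicate 23 and 2 without replicate 15.

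Bile acid synthesis genes had 0 risers and 3 fallers of 19. Cyp8b1, the hydroxylase that sets the share of cholic acid, had 4192, 4314 and 3699 in HFD Vehicle, 7472, 8161 and 7090 in HFD and 11338, 7560 and 10799 in Chow. It was 2.43-fold lower in HFD Vehicle than in Chow and passed edgeR (adjusted p = 0.0463). Klb, the co-receptor for the intestinal hormone that shuts down bile acid synthesis, fell 1.99-fold, and Scp2, a sterol carrier, fell 1.35-fold. The canalicular pumps for bile salts and phospholipid, Abcb11 and Abcb4, fell 1.55-fold and 1.78-fold. Among 23 drug and bile salt transporters 2 rose, Abcb1a (3.76-fold) and Slc10a2 (2.49-fold), and 3 fell. In the refit the transporter counts ran from 1 to 4 risers and were 2 fallers in each setting with 1 vehicle library left out.

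Genes of amino acid and lipoprotein metabolism fell in part. Of 39 amino acid and urea cycle genes 1 rose and 6 fell, against 3.17% and 2.50% of all expressed genes, with 0 passing edgeR. Cbs, which commits homocysteine to cysteine, fell 1.70-fold, Gnmt, which uses up methyl groups, 1.60-fold, and Oat, ornithine aminotransferase, 1.69-fold. The refit had 4 such fallers with all libraries, 1 without replicate 55, 3 without replicate 23 and 8 without replicate 15. In the lipoprotein list (25 expressed) Pltp, the phospholipid transfer protein, fell 2.90-fold, Lipc, hepatic lipase, 1.77-fold and Mttp, which loads lipid onto apolipoprotein B, 1.64-fold, while the receptor Lrp1 rose 1.57-fold. Leaving out replicate 15 raised the lipoprotein fallers of the refit to 5, against 3 with all libraries.

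Of 33 expressed sex-biased and growth hormone dependent genes 1 rose and 7 fell, against 3.17% and 2.50% of all expressed genes, so the riser is no more than the background share. In edgeR 0 of the 8 passed. The refit had 7 fallers with all libraries and 7 or 8 without 1 vehicle library, and its risers numbered 3 with all libraries and 2 to 4 without 1. Elovl3, an elongase higher in male liver, had 1285, 855 and 341 in HFD Vehicle, 1295, 2067 and 541 in HFD and 5692, 4478 and 5373 in Chow, 6.27-fold lower in HFD Vehicle than in Chow. Cyp4a12b, of a male-biased P450 subfamily, fell 7.2-fold. The major urinary proteins Mup20 (2.34-fold), Mup21 (2.07-fold) and Mup3 (2.49-fold) fell, and reads of this family are hard to assign to 1 copy. The P450 genes Cyp3a44 (5.75-fold) and Cyp2c40 (2.99-fold), also on this list, fell too. Cyp2a4, which is higher in female liver, was the riser. The list was not divided by the sex in which its members are higher, so its counts give no direction by sex.

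Clock genes moved in both directions. Of 18 expressed members 6 rose and 2 fell, against 3.17% and 2.50% of expressed genes, and 3 passed edgeR. The refit had 5 risers with all libraries and 5, 5 and 4 without replicate 55, 23 and 15. Per2 and Per3, repressors that close the clock loop, rose: Per3 had 857, 609 and 1218 in HFD Vehicle, 394, 406 and 956 in HFD and 166, 261 and 268 in Chow, 3.86-fold higher in HFD Vehicle than in Chow (adjusted p = 0.0449, edgeR). Per2 rose 4.33-fold, 2.80-fold without replicate 55.

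The activators Clock and Arntl, the partners that switch on Per genes, fell. Clock had 1179, 1167 and 1010 in HFD Vehicle, 1460, 1341 and 939 in HFD and 2227, 2020 and 2140 in Chow, 1.90-fold lower in HFD Vehicle than in Chow (adjusted p = 0.0359, edgeR). Arntl had 46.8, 40.6 and 23.6 in HFD Vehicle against 165, 70.6 and 97.9 in Chow, 3.00-fold lower. The output regulator Tef rose 1.39-fold, the deadenylase Noct 1.88-fold and the repressor Ciart 1.75-fold. Sampling hour was not among the labels, so a difference in hour between groups was not tested.

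The Ciart promoter is shown because it holds 3 matches to the E-box CACGTG, the site that Clock and Arntl are known to bind. They begin at -116, -58 and -44 from the RefSeq start. Capitals mark them. The motif reads the same on both strands. Of the 4 clock risers with a promoter in the RefSeq collection 2 held it, and 7.15% of all promoters did.
Ciart, chr3:95882179-95882478, minus strand, GRCm38.p6: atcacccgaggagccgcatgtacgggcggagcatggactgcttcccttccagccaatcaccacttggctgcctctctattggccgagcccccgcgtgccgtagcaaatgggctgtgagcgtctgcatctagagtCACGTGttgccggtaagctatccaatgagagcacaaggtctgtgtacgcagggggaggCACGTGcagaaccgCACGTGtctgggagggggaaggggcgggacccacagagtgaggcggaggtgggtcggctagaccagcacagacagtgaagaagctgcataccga

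Markers of other liver cells were listed to different extents. In bulk liver, fewer cells of a type and less RNA per cell cannot be told apart. Of 35 expressed stellate cell and matrix genes 3 rose and 0 fell, 8.57% listed against 5.67% of all expressed genes. Timp1, an inhibitor of matrix proteases, held 40 raw counts in the 3 vehicle libraries and 0 in the 3 Chow libraries, at least 12.4-fold higher with a floor of 3 counts over the group. Mmp12, a macrophage elastase, had 10.1, 113 and 82.7 in HFD Vehicle against 12.6, 5.0 and 14.0 in Chow, and the groups overlapped. Col5a2, a collagen chain, rose 2.73-fold, 1.80-fold without replicate 23. Col1a1, the main fibrillar collagen, is not listed, at 57.9, 727 and 383 in HFD Vehicle, 473, 463 and 575 in HFD and 77.5, 37.2 and 58.1 in Chow. Its ratio of HFD Vehicle to Chow was 6.76, and 3.83 without replicate 23.

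Replicate 15 had low values for these matrix genes, and the DESeq2 refit without it called 8 stellate cell and matrix genes higher, against 2 with all libraries, 1 without replicate 55 and 1 without replicate 23, where 1 fell. Summed over the 22 members with Chow counts, the list ran from 5203 to 11301 in HFD Vehicle, 12095 to 17865 in HFD and 6804 to 7234 in Chow. Chow counts are at hand only for genes listed in some comparison of the series with Chow. The differences of such a sum from Chow are therefore partly fixed by that choice. The macrophage and Kupffer cell list had 2 risers and 0 fallers of 32, 6.25% listed against 5.67%. Mpeg1, a pore-forming protein of macrophages, had 1659, 1446 and 1452 in HFD Vehicle against 997, 814 and 1181 in Chow, 1.52-fold higher. Gpnmb, of lipid-laden macrophages, rose 9.60-fold from a few counts, 4.80-fold without replicate 23.

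The summed macrophage list (14 members with Chow counts) ran from 6113 to 8594 in HFD Vehicle, 8179 to 12888 in HFD and 4930 to 6721 in Chow. This sum and the endothelial sum below hold only members listed in some comparison of the series with Chow. Their differences from Chow are partly fixed by that choice. Macrophage risers numbered 2 in the refit with all libraries, 0 without replicate 55 or 23 and 3 without replicate 15. Endothelial cell genes had 0 of 24 listed, and the 3 with Chow counts summed to 1277 to 2242 in HFD Vehicle, 2355 to 2601 in HFD and 2333 to 2792 in Chow. Cholangiocyte genes had 2 risers of 7, 28.6% against 3.17% of all expressed genes higher, Spp1 (osteopontin, 3.00-fold) and Pkhd1 (1.82-fold). The DESeq2 refit had 2 with all libraries and 1 without replicate 15. Lymphocyte and granulocyte genes had 0 of 6 listed, and the 24 found summed to 166 to 262 in HFD Vehicle and 198 to 532 in HFD, with Chow not analysed here. In none of these lists was a member at 0 in all 6 high-fat-diet libraries. The part of these cell types in the results above was not tested.

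Several housekeeping groups had no member listed: 0 of 25 cell cycle genes, 0 of 45 cytosolic ribosome genes and 0 of 14 mitochondrially encoded genes. Of 34 genes of mitochondrial respiration 1 fell, Cycs (cytochrome c, 1.55-fold lower). The NRF2 antioxidant list had 0 risers and 1 faller of 25, Me1, which it shares with fat synthesis. Of 27 genes of endoplasmic reticulum stress and folding 1 rose (Chac1, a glutathione-degrading stress gene, 2.36-fold) and 1 fell (Trib3, a pseudokinase, 1.99-fold). Of 35 genes of gluconeogenesis, glycolysis and insulin signalling, the kinase Sik1 rose 1.86-fold, and Trib3 and the insulin receptor substrate Irs1 (1.53-fold) fell.

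Genes that mark position along the liver lobule moved both ways. Of 23 pericentral genes 3 rose (Cyp2a5, Lect2 and Nr1i3) and 1 fell (Oat), and of 22 periportal genes 3 rose (Itih4, Aldh1b1 and Ctsc) and 2 fell (Cyp2f2 and Sdsl). In the DESeq2 refit the risers numbered 2 in each zone with all libraries, and without 1 vehicle library 0 to 3 pericentral and 1 to 3 periportal. Of 7 expressed genes of blood, adipose tissue, muscle and pancreas 0 rose and 1 fell, Alas2, the heme-synthesis enzyme of red cell precursors, which was 1.5-fold lower.

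Genes outside the lists included some of the largest changes. Slc13a3, a kidney and liver dicarboxylate carrier, had 747, 672 and 1263 in HFD Vehicle, 725, 731 and 536 in HFD and 169, 162 and 82.8 in Chow, 6.47-fold higher in HFD Vehicle than in Chow. Its citrate-carrying relative Slc13a5 rose 11.0-fold, 6.32-fold without replicate 55, with means of 48.3 ± 35.9 in HFD Vehicle and 4.4 ± 2.0 in Chow. Isyna1, which makes inositol, rose 6.5-fold, 3.69-fold without replicate 55. Fbf1, a protein of the ciliary base, rose 10.2-fold, and 4.29-fold without that library, which held 1445 of its counts against 340 and 226 in replicates 15 and 23. Chil1, a chitinase-like protein, had 45.0, 87.0 and 118 in HFD Vehicle, 57.4, 52.3 and 67.0 in HFD and 5.1, 5.0 and 4.3 in Chow, 17.5-fold higher in HFD Vehicle than in Chow.

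Downward, Slc30a10, a manganese exporter, had 139, 159 and 246 in HFD Vehicle, 506, 467 and 260 in HFD and 1082, 774 and 944 in Chow, 5.14-fold lower in HFD Vehicle than in Chow (adjusted p = 0.0201, edgeR). Srd5a1, a steroid reductase, had 349, 218 and 177 in HFD Vehicle against 1086, 1058 and 1076 in Chow, 4.32-fold lower. Spon2, a secreted matrix protein, fell 6.65-fold, to 35.2 ± 9.6 in HFD Vehicle against 234 ± 28.7 in Chow. Slc17a8, a vesicular glutamate transporter, fell 4.09-fold. Serpina12 (vaspin) fell 5.51-fold, and 9.76-fold without replicate 15. Hectd2os, an antisense transcript of Hectd2, fell 4.65-fold while Hectd2 rose 2.47-fold. Whether reads were counted by strand is not given in the sources used here, so reads of these overlapping genes may be mixed.

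**Figure D4:**
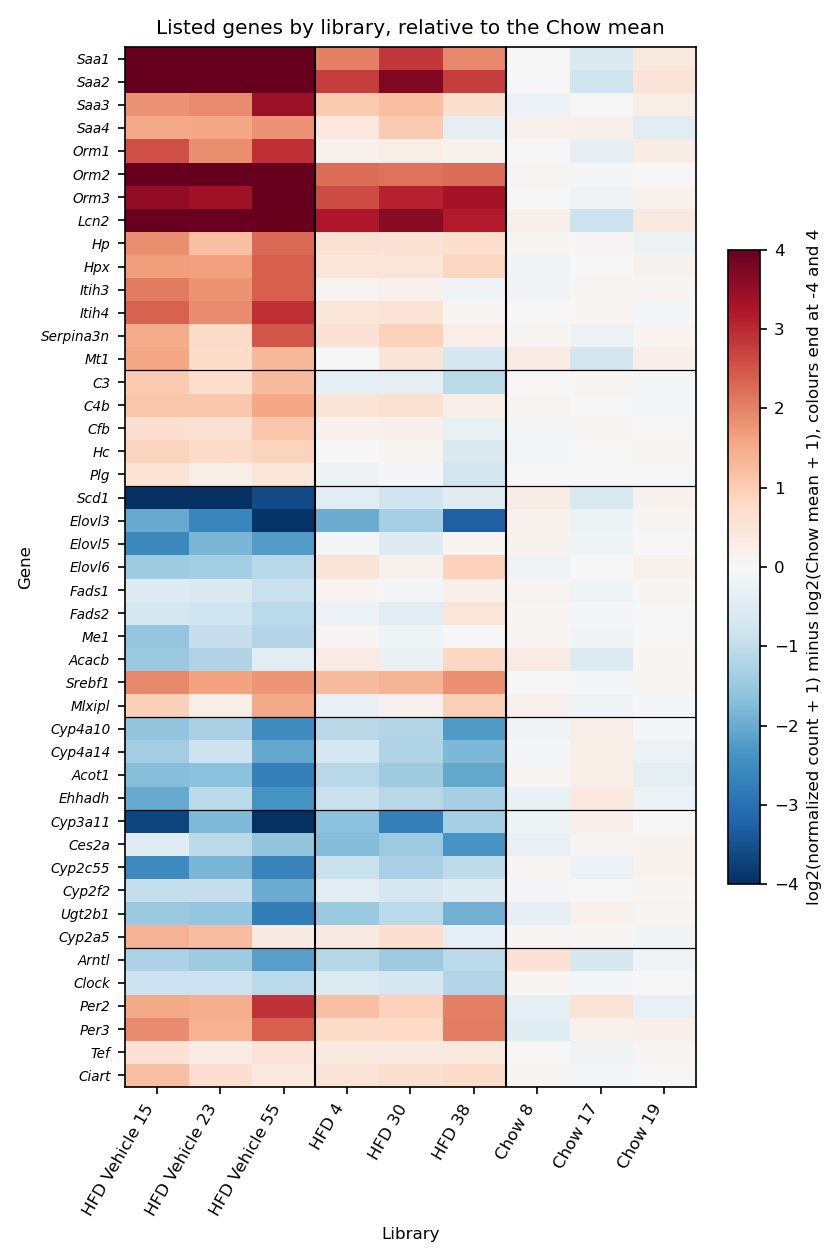
Rows are listed genes of the acute phase, complement and coagulation, fat synthesis, fat burning, drug metabolism and clock groups, top to bottom between the horizontal lines; columns are the 3 HFD Vehicle, 3 HFD and 3 Chow libraries. Colour is the log2 difference from the Chow mean with 1 added to each value, ending at -4 and 4: Scd1, Elovl5 and Elovl6 are blue in HFD Vehicle and pale or red in HFD, and Cyp4a10, Acot1 and Cyp3a11 are blue in both high-fat-diet groups.

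Some noncoding classes were listed in both directions and 1 mainly upward. Listed lincRNAs were 12 risers and 11 fallers, of which 12 and 7 passed the expression filter. That is 8.26% of 230 expressed lincRNAs, against 5.67% of all expressed genes. Antisense RNAs had 4 risers and 2 fallers (3.14% of 191 expressed) and processed transcripts 4 and 2 (4.41% of 136). Both shares are below that of all expressed genes. Of 479 expressed loci of the annotation class TEC, candidate transcripts not yet tested by experiment, 37 rose and 1 fell, 7.93% listed against 5.67% of all expressed genes. Of the 38 TEC risers, 1 of them below the expression filter, 37 lie within a protein-coding gene on the same strand. For 8 that host gene also rose, while 3.17% of all expressed genes rose. Some of these loci share a host, as in Mad1l1, Pdzrn3 and Picalm, so they are not separate cases. The summed counts of the 38 were 4012, 2549 and 6747 in HFD Vehicle, 1404, 1974 and 2892 in HFD and 1117, 1359 and 1326 in Chow. The 38 were chosen as risers on the same HFD Vehicle and Chow libraries. That choice nearly fixes the gap between these 2 groups in the sum. Reads of such a locus and of its host's unspliced RNA cannot be told apart.

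Of the risers among long noncoding RNAs, 4 were picked after their values were seen, and they stand for no class. Malat1, a nuclear RNA, had 59993, 45639 and 104405 in HFD Vehicle, 32564, 45861 and 59475 in HFD and 26303, 31923 and 31089 in Chow, 2.35-fold higher in HFD Vehicle than in Chow. Kcnq1ot1, which silences an imprinted cluster, rose 2.25-fold, and Firre rose 2.76-fold. Lncpint rose 2.42-fold, 1.61-fold without replicate 55. In each of these 4 genes and in the TEC sum replicate 55 was the highest of the 3, the library that was also farthest from Chow in most listed genes. The part of nuclear RNA content in the results above was not tested.

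HFD Vehicle shares its libraries between the comparison with Chow and that with uninjected HFD, so the HFD values above are given side by side only. The difference between HFD Vehicle and HFD was tested directly: edgeR called 1 of 13775 expressed genes (0.00726%), Orm2, which was higher in HFD Vehicle (adjusted p = 0.0211). The call was lost, with 0 genes called, without any one of the 3 HFD libraries or without HFD Vehicle replicate 15. With all libraries 1725 had an unadjusted p under 0.05 and DESeq2 called 268. The Scd1 difference between HFD Vehicle and HFD had an unadjusted edgeR p of 0.000582, that of Elovl6 2.55e-05, and that of Itih3 1.95e-05. For Cyp4a10 that p was 0.456, for Srebf1 0.216 and for Clock 0.36, genes whose 2 high-fat-diet groups overlapped. A p that misses the threshold does not show that those groups are alike.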

How the data were processed

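Sequencing libraries of DNase-treated liver total RNA were prepared with standard Illumina protocols, per the labels. The submitters' processing notes name HISAT2, HTSeq and DESeq2 and the build GRCm38 (mm10), with no version, and how each was set is not given in the sources used here. In their tables the authors deposited raw read counts per gene and library, with DESeq2 log2 fold changes, p-values and adjusted p-values. Of 25522 rows of the vehicle and chow table, 790 hold values, the highest deposited adjusted p being 0.04999. From the adjusted and unadjusted p-values 25520 genes were estimated to have been tested. Chow counts of 2073 further genes came from other tables of the series, in which 0 counts of a shared gene differed. Uninjected high-fat-diet counts came from the complete table of 26015 genes. Each library's size factor was solved from its counts and the deposited normalized means (largest residual 0.008%), and vehicle size factors differed by at most 0.6% between tables.

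Expressed genes are the 13775 kept by edgeR's filterByExpr in the complete table. The second test was edgeR 4.0.16 glmQLFit (in its legacy mode) and glmQLFTest (R 4.3.3) on the 2863 genes with counts in all 6 libraries, with the deposited size factors, the dispersion trend and prior (4.2 degrees of freedom) of the complete table, and adjustment over 25520 genes. It takes the place of a fit on a whole table and was chosen after the tables were seen, as were the DESeq2 1.42.0 refits. Two-sided tests were used. An exact permutation test of 1 gene, 3 samples against 3, cannot go below p = 0.10. The deposited log2 changes are moderated, at a median of 0.917 of the log2 ratio of means, so folds are given as ratios of means. In some genes the deposited change is far smaller than that ratio. It is -1.21 against -2.84 for Cyp3a11 and 1.24 against 3.34 for Fbf1. Each SE is that of the difference between the group means of log2 values, with 0.5 added to each value. It stands beside the log2 ratio of means, which can differ from that difference where libraries spread widely. Scripts were tested on simulated data.

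The members and the 34 gene lists (931 genes) were chosen with earlier results of these data known. Named were the 12 listed genes of each direction with the largest ratio and a mean of at least 100, up to 4 listed members of each list by mean count, a set of genes named whether listed or not, and the 6 of each direction with the largest ratio to uninjected HFD. The other named genes, the promoters and the motifs were chosen after values were seen. Gene starts, counted from 0 in the tables, were raised by 1; of 789 listed genes found in GENCODE M21, 736 had the same coordinates. Of the listed genes 558 had a RefSeq promoter. A few genes counted in the lists are not reported by name.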

Additional observations from a re-analysis of the deposited data

Results flagged for a closer look

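Orm2 differed between the injected and the uninjected high-fat-diet groups in their distance from Chow. Because both contrasts use the same Chow libraries, the test of that difference is the test of HFD Vehicle against HFD, where edgeR gave an adjusted p of 0.0211 with all 6 libraries. With any one HFD library or HFD Vehicle replicate 15 left out, 0 genes were called. Orm2 was higher in 3 of 3 vehicle libraries, at 5816, 4850 and 9726 normalized counts in HFD Vehicle, 569, 544 and 558 in HFD and 123, 113 and 122 in Chow.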

How the results depend on the processing

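The 790 deposited calls became 94 with edgeR and 465 at a deposited adjusted p under 0.01. A DESeq2 refit without 1 library, chosen after seeing the data, gave 411 to 635 calls (422, 411 and 423 without Chow replicates 8, 17 and 19; 506 without HFD Vehicle replicate 55). The edgeR count of 94 was 194 when the uninjected HFD libraries joined the fit, and 2 to 67 when 1 library was left out (5, 6 and 2 without Chow replicates 8, 17 and 19; 27, 67 and 26 without HFD Vehicle replicates 15, 23 and 55). The leave-one-out fits used fewer samples and the fit with uninjected HFD used more, and other causes were not tested. Between HFD Vehicle and HFD the edgeR count of 1 was 283 without the expression filter, 268 with DESeq2 and 0 to 9 without 1 library, Orm2 being lost without any one HFD library or HFD Vehicle replicate 15, and the cause was not tested. Other scalings and count minimums gave counts within 1.5 times those given. Of 1456 alternative values of 182 named listed genes 0 changed sign and 9 moved by more than 1 SD. In 20 genes leaving out 1 library moved the ratio by over 1.5 times. The choice of the listed genes on the same libraries nearly fixes the count of sign changes. In 775 of the 790 the groups do not overlap, and leaving out 1 library cannot change the sign of such a gene. No paired analysis was possible because the replicate numbers differ between the groups. Chow counts of unlisted genes are at hand only in part, genes of low count have wide error, and intervals between 3 samples are broad.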

Other observations

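Cyp2b9, a P450 that is higher in female mouse liver and answers to CAR, is not among the genes listed by the authors' deposited table, although its counts from other tables stand far apart. It had 3447, 8168 and 3864 normalized counts in HFD Vehicle, 6502, 5800 and 5956 in HFD and 203, 33.4 and 31.2 in Chow, 57.8-fold higher in HFD Vehicle than in Chow and 160-fold without Chow replicate 8. Of the 2073 genes outside the list with counts at hand it was the 1 that passed edgeR (adjusted p = 0.0359). Its adjusted p in the DESeq2 refit was 1.26e-07. It was picked after its values were seen.

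Themis, known as a T cell signalling gene, had 254, 570 and 632 in HFD Vehicle, 586, 769 and 471 in HFD and 114, 94.1 and 39.8 in Chow, 5.88-fold higher in HFD Vehicle than in Chow. Nrg4, a growth factor known from brown fat, had 554, 653 and 1041 in HFD Vehicle, 664, 537 and 805 in HFD and 241, 220 and 214 in Chow, 3.33-fold higher (adjusted p = 0.0359, edgeR). The lactate carrier Slc16a1 had 647, 783 and 706 in HFD Vehicle, 1192, 1095 and 1226 in HFD and 2032, 1873 and 2155 in Chow, 2.84-fold lower in HFD Vehicle than in Chow (adjusted p = 0.0109, edgeR). Cyp17a1, a steroid hydroxylase, had 275, 177 and 188 in HFD Vehicle, 738, 467 and 584 in HFD and 949, 720 and 527 in Chow, 3.43-fold lower in HFD Vehicle than in Chow (adjusted p = 0.0442, edgeR).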
